A study of Homo sapiens and Mus musculus with 21 samples.

Results

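Ribosome occupancy over RNA was measured in wild-type HEK293T cells, a line derived from human embryonic kidney, for the 785 genes that the deposited table of ribosome-protected fragments lists, out of 58381 in the matching table of input RNA. Every listed gene was kept, and 765 of them could be named. The series compares wild-type cells with cells lacking PCIF1, the enzyme that N6-methylates a 2′-O-methylated adenosine at the first transcribed base (m6Am), and holds 21 libraries. Here 4 wild-type libraries were used, all of genotype WT with no treatment in the labels: 2 of ribosome-protected fragments and 2 of input RNA, replicates 1 and 2 of each. No knockout library entered. The labels give the RNA as cytoplasmic and describe 2 rounds of oligo(dT) selection, a miCLIP-type cloning protocol for the fragments and a directional RNA kit for the input. They do not say whether the replicates were separate cultures, so p-values here reflect the variation among 4 libraries, possibly technical alone.

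A translating ribosome shields a short stretch of its mRNA from nuclease, and sequencing these stretches shows where ribosomes sit. Dividing the fragments of a gene by its RNA gives the ribosome occupancy per mRNA, often called translational efficiency. The ratio depends on how often ribosomes start on an mRNA and on how fast they move along it, so it is not a protein output by itself. Here it is the log2 of a gene's share of fragments minus the log2 of its share of input RNA, with shares taken over the 785 listed genes as CPM, counts scaled to a total of 1000000. A value of 0 therefore means the same share in both kinds of library, and every value is relative to the other listed genes. Comparing a ratio between genes has a limit: input reads cover the whole transcript and fragments mainly its coding part, and transcript lengths were not used here.

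Depth differed between the fragment libraries. Over the listed genes they held 17665 counts in replicate 1 and 61816 in replicate 2, against 1188897 and 1085480 in the input, where the listed genes took 19.9% and 20.2% of all counts. Every listed gene had at least 10 fragment counts in each library, and the median gene had 15 and 53. In replicate 1, 265 genes had 12 counts or fewer, against 17 in replicate 2. This floor of 10 counts corresponds to 566 CPM in replicate 1 and 162 CPM in replicate 2, so a gene at the median input level could not show a log2 ratio below -0.81 in replicate 1 or -2.58 in replicate 2. Only 365 (32.9%) of the 1110 genes whose input RNA lay at or above the listed median in both libraries are listed, and the rule behind the list is not stated. Log2 CPM across genes correlated at Pearson's r of 0.64 between the fragment libraries and 0.98 between the input libraries. Of the 8 HEK293T markers checked, IRS4, LIN28B and IGF2BP1 could be named in the input, at 542 and 497, 18.6 and 22.1, and 882 and 697 CPM of all genes in replicates 1 and 2. No fibroblast, blood, endothelial or mature kidney marker could be named among the identifiers, so those cells were not checked.

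The ratio spread widely over the listed genes, and both replicates ordered most of them alike. In edgeR's quasi-likelihood test of fragments against input RNA, 196 genes (25.0%) had a higher share of fragments than of input RNA and 203 (25.9%) a lower share, at an adjusted p under 0.05 (50.8% in either direction). Both fragment libraries lay above both input libraries in 37.2% of the genes and below both in 40.5%. The fitted log2 ratio ran from -2.80 to 9.10, with a median of -0.06, and its 5th and 95th percentiles lay 21.1-fold apart, at -1.84 and 2.56. The ratio was above 0 in both replicates for 313 genes, below 0 in both for 341, and of opposite sign for 131. No called gene had opposite signs in its replicates. Across genes, the ratios of replicates 1 and 2 correlated at Spearman's rho of 0.81 and Pearson's r of 0.78 over 785 genes, which share their libraries and are not independent. The replicates differed by a median of 0.54 on the log2 scale, and by more than 2 in 38 genes, of which 29 were higher in replicate 1. Counts of calls depended on having all 4 libraries: 78 higher and 76 lower were left without input replicate 1, and 88 and 95 without input replicate 2. Leaving out fragment replicate 1 gave 237 and 250, and leaving out fragment replicate 2 gave 168 and 152.

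**Figure D1:**
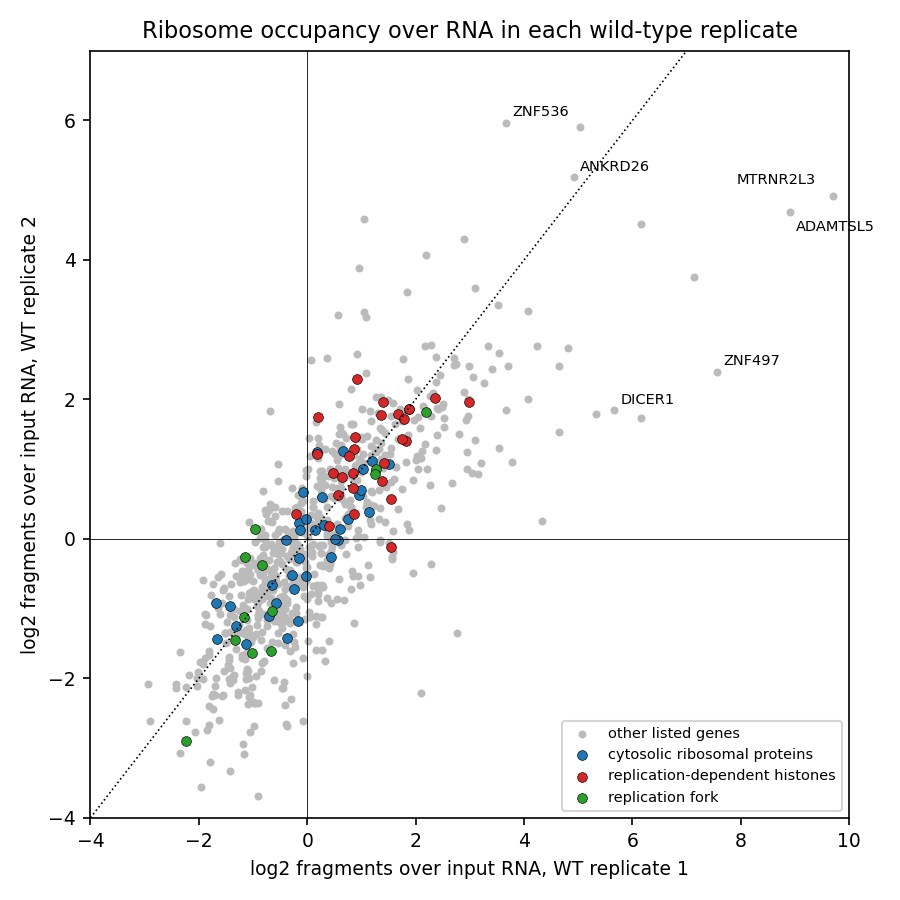
Log2 ratio of fragments to input RNA in replicate 1 (horizontal) and replicate 2 (vertical) of wild-type cells, 1 point per listed gene, with the diagonal dotted. Histones (red) lie mostly above 0 on both axes, most of the replication fork genes (green) below 0, ribosomal proteins (blue) on both sides, and several genes with the highest ratios sit far to the right of the diagonal, such as MTRNR2L3 at 9.70 and 4.91.

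Among the highest called genes were ANKRD26 and the zinc finger repressor ZNF536. ANKRD26, an ankyrin repeat protein, had 1019 and 1294 CPM in fragment replicates 1 and 2 against 30.3 and 32.2 CPM in input replicates 1 and 2. Both fragment libraries lay far above both input libraries, with a fitted log2 ratio of 5.23 ± 0.44 (SE, n = 2 libraries of each kind) and an edgeR adjusted p of 1e-05. ZNF536 had 2151 and 9722 CPM of fragments against 166 and 152 CPM of input RNA, so its fragments differed between replicates by more than its input did. Its log2 ratio of 5.26 had an edgeR adjusted p of 0.035, and the call was lost when only named protein-coding genes were tested.

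Of the other highest called genes, PRC1, CKS2 and TLK1 had lower ratios than these. PRC1, which bundles microtubules of the spindle midzone, had 679 and 793 CPM of fragments against 88.3 and 36.9 CPM of input RNA (log2 ratio 3.57). CKS2, a small subunit bound by cyclin-dependent kinases, had 1698 and 1796 CPM against 145 and 173 CPM (log2 ratio 3.46). TLK1, a kinase that acts on a histone chaperone, had 679 and 938 CPM against 76.5 and 74.6 CPM (log2 ratio 3.46). In all 3 genes the lowest fragment value exceeded the highest input value by several-fold. For PRC1 and TLK1, however, input RNA lay under the floor of fragments, 566 and 162 CPM in replicates 1 and 2. At such input levels only genes with ratios above 0 could be listed, so the separation itself is no finding. The same limit applies to ANKRD26 and VPS9D1. ICA1L (5.60), CREBRF (3.87), GMFB (3.82), PRPF40B (3.79), UCHL3 (3.73) and VPS9D1 (3.58) were also among the highest called genes, given by their fitted log2 ratios. CREBRF and VPS9D1 were no longer called without either input library. The fragments of GMFB, a regulator of branched actin, were uneven: 2038 CPM in replicate 1 and 356 CPM in replicate 2, against 47.1 and 100 CPM of input RNA.

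Several genes with the highest ratios did not pass the test. By fitted value, 6 of the 10 highest were not called: MTRNR2L3, ADAMTSL5, ZNF497, USP27X, SPRED1 and DICER1. All of these had most of their fragments in replicate 1. MTRNR2L3, which RefSeq holds as a pseudogene resembling mitochondrial ribosomal RNA, had 11888 CPM of fragments in replicate 1 and 404 CPM in replicate 2, against 10.9 and 10.1 CPM of input RNA. Not called in the main fit, it was called higher with DESeq2's Wald test and with the replicate number as a block. DICER1, the RNase that releases mature miRNAs, had 12171 and 1149 CPM of fragments against 236 and 317 CPM of input RNA. ZNF497 had 7755 and 243 CPM of fragments against 37.9 and 43.3 CPM of input RNA. Fragments exceeded input RNA in both replicates of these genes, but by amounts that differed more than 10-fold between replicates. The ranks at the ends were therefore only partly shared: of the 10 highest genes in each replicate 5 were common to both, of the 10 lowest 2, and of the 78 highest and 78 lowest 48 (61.5%) and 40 (51.3%).

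The 12 lowest called genes had fragments below input RNA in both replicates. KDM5C, a histone H3 lysine demethylase, had 849 and 323 CPM of fragments in replicates 1 and 2 against 3319 and 3830 CPM of input RNA. Both fragment libraries lay below both input libraries, with a fitted log2 ratio of -2.80 ± 0.41 (SE, n = 2 libraries of each kind) and an edgeR adjusted p of 0.000437. LARP1, which binds mRNAs that start with a pyrimidine tract, had 566 and 518 CPM of fragments against 4254 and 3176 CPM of input RNA (log2 ratio -2.79). HUWE1, a ubiquitin ligase, had 1076 and 1602 CPM against 8240 and 6788 CPM (log2 ratio -2.45). In both genes the fragments lay below the input RNA in each replicate. The fragment counts of HUWE1, 19 and 99, were above the listed medians of 15 and 53. WDR6 (-2.79), POLE (-2.64), DCAF7 (-2.63), SPEN (-2.51), PI4KA (-2.47), GTF3C1 (-2.45), INTS1 (-2.37), PELP1 (-2.34) and ADAR (-2.30) complete the 12, given by their fitted log2 ratios. Among the 10 lowest of replicate 1 were also NUP210 (-2.02), STARD7 (-2.20), RRP1B (-1.94) and SNRNP200 (-2.22), and among those of replicate 2 TBL3 (-2.30), CTBP1 (-2.19), FARSA (-2.01) and TAOK2 (-2.20), of which TAOK2 alone was not called, at -0.91 in replicate 1 and -3.69 in replicate 2. None of the calls of the 12 was lost under any alternative that tested the gene, other than scaling the input to all its genes. The fragment counts of KDM5C were 15 and 20, and those of LARP1 10 and 32 in replicates 1 and 2, against the floor of 10.

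**Figure D2:**
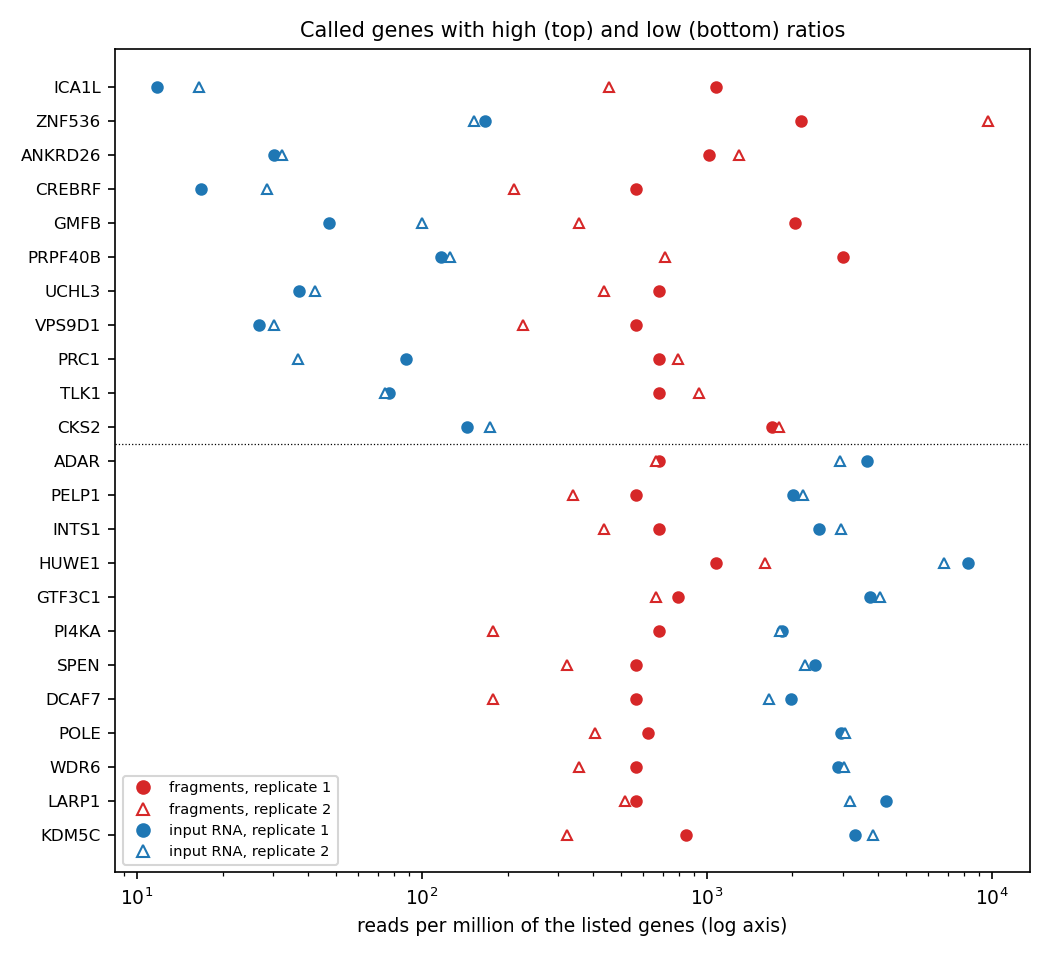
CPM of the listed genes on a log axis, for 11 called genes with high ratios (top) and the 12 lowest (bottom), with fragments in red and input RNA in blue, circles for replicate 1 and open triangles for replicate 2. Fragments and input RNA do not overlap in any of these genes. Input RNA was at most 173 CPM in the high genes and at least 1660 CPM in the lowest. In the high genes input RNA lay under the floor of 566 CPM in fragment replicate 1, so their fragments there could only lie above it.

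Families were described through 27 gene lists with at least 1 named member; besides the highest and lowest member of a list, members are named because of their values. Among these lists, replication-dependent histones had the largest share of members called in 1 direction, 75%. Of 28 replication-dependent histone genes, whose mRNAs are made in S phase and end in a stem-loop in place of a poly(A) tail, 21 had a higher share of fragments and 0 a lower share, while 25.0% of all listed genes were higher. Their median log2 ratio was 1.20 (1.14 in replicate 1, 1.26 in replicate 2) against -0.06 over all listed genes. In 24 of the 28, both fragment libraries lay above both input libraries, which held for 37.2% of listed genes. H3C2 had 11492 and 11372 CPM of fragments against 2231 and 2807 CPM of input RNA, a log2 ratio of 2.18 (edgeR adjusted p = 2.37e-05). The linker histone gene H1-4 had 16190 and 19121 CPM of fragments against 4397 and 5232 CPM of input RNA, a log2 ratio of 1.88 (edgeR adjusted p = 2.75e-05). Fragments and input RNA were far apart in both genes and the replicates close.

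Each histone class contributed. All 6 H2B genes and all 5 H3 genes were called higher, with median log2 ratios of 1.81 and 1.58. Of the H2A genes 5 of 7 were called (median 1.15), of the linker histones 2 of 3 (median 1.74), and of the H4 genes 3 of 7 (median 0.80). H2BC5 was the highest histone, at 4812 and 1957 CPM of fragments against 603 and 498 CPM of input RNA (log2 ratio 2.57). H1-3 was the lowest, at 1415 and 2588 CPM against 1631 and 2030 CPM (log2 ratio 0.18), and its groups overlapped. Among the core histones, H4C5 was also not called, at 2717 and 3235 CPM against 2063 and 2850 CPM. Polyadenylated RNA was selected per the labels, and these mRNAs lack the tail. The labels do not say whether the selection applied to fragments in the same way as to input RNA. Its part in the histone ratios was not tested, and the libraries used here cannot separate it from ribosome occupancy. Histone copies are nearly identical in sequence, and how reads matching several copies were counted is not given in the sources used here, so values of single copies are uncertain. With input replicate 1 or 2 left out, 11 of the 28 were still called in each case, and without fragment replicate 2, 14. H1-4, H1-2, H3C2, H3C10, H4C3, H2BC11, H2BC4 and H2AC4 kept their call under every alternative.

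The histone promoters are shown because the genes were high together while their starts carry a shared set of motifs. A script searched the 250 bases before the RefSeq start (GRCh38.p14) on both strands for TATAAA (the TATA box), CCAAT and the octamer ATTTGCAT. None of the 3 contains another. TATAAA was present in 21 of 24 histone promoters given (87.5%), 10.7% of listed genes' promoters and 11.1% of all 27305 promoters. CCAAT was in 79.2%, 42.1% and 33% of the same groups, and ATTTGCAT in 41.7%, 2.49% and 1.66%. The last 120 bases before the start follow for H1-4 (chr6:26156209-26156328, plus strand), H3C2 (chr6:26032100-26032219, minus strand) and H2BC11 (chr6:27132796-27132915, minus strand), written 5′ to 3′ with motif matches on either strand in capitals.
H1-4: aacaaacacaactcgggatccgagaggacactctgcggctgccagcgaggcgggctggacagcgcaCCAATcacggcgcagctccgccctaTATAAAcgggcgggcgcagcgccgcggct
H3C2: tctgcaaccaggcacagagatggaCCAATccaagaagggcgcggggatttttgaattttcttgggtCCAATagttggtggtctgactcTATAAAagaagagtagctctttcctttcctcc
H2BC11: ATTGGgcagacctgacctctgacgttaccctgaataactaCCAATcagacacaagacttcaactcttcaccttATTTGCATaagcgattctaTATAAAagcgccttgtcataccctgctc
Each carries TATAAA shortly before the start and at least 1 CCAAT further upstream, and H2BC11 also the octamer. H2BC11 had 3963 and 4772 CPM of fragments against 1238 and 1375 CPM of input RNA (log2 ratio 1.75). A promoter motif is a description of the gene, not of its translation.

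Histone variants, made outside S phase from polyadenylated mRNAs as a rule, were mixed. H2AX, which marks DNA breaks when phosphorylated, was called higher (0.90) and MACROH2A1 lower (-0.86), while H2AZ1 (0.52), H1-10 (0.58) and H3-3B (-0.38) were not called. Each direction thus held 20% of the 5 members, against 25.0% and 25.9% of all listed genes. Neither call held without input replicate 1 or input replicate 2.

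**Figure D3:**
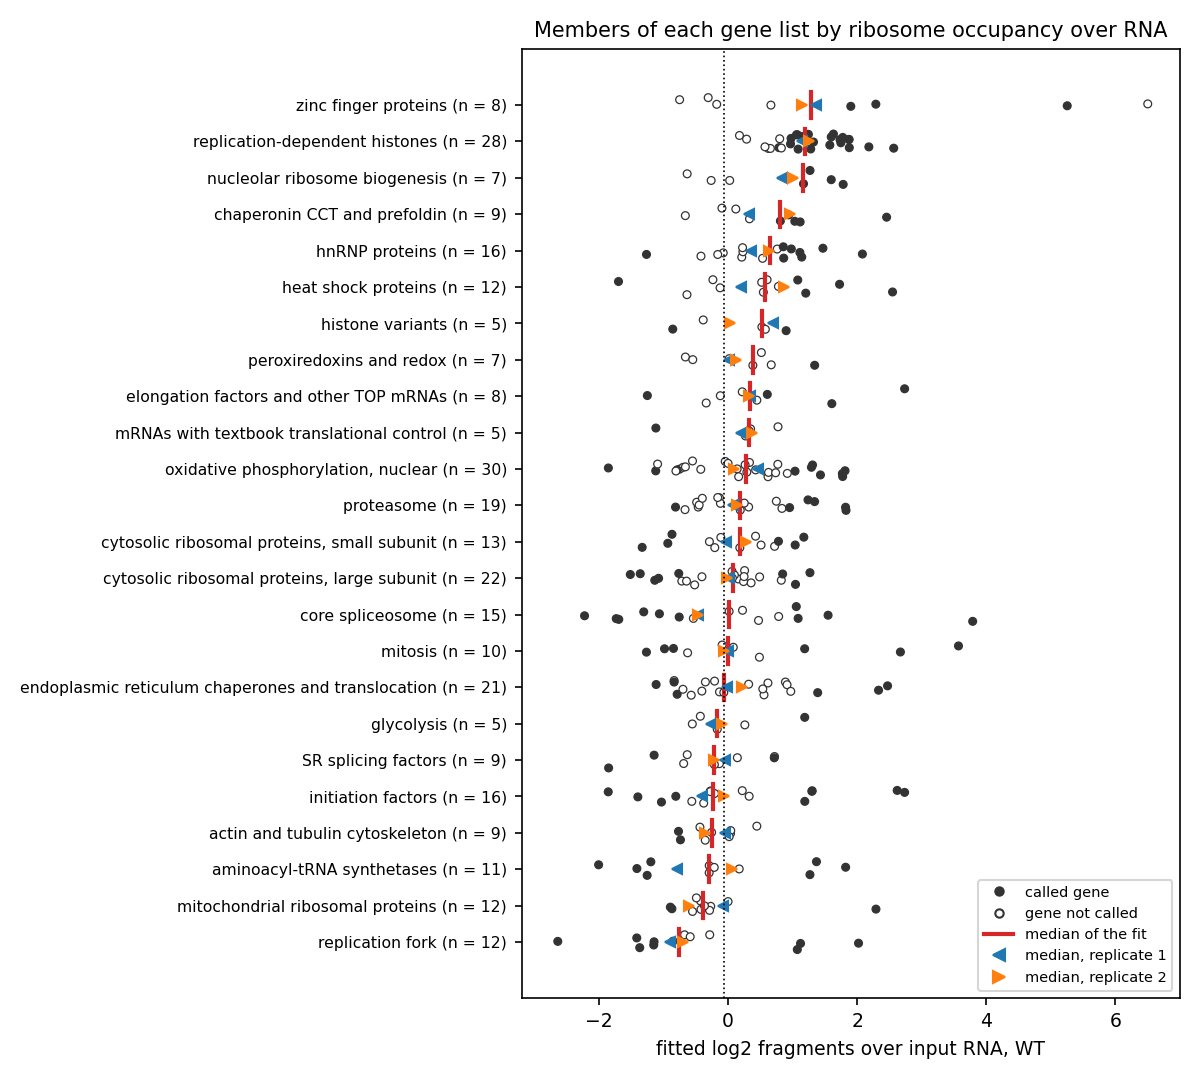
Fitted log2 ratio of fragments to input RNA for each member of the 24 lists with 5 or more members, filled where called and open where not, with the median of the fit (red bar) and of replicates 1 and 2 (triangles); the dotted line is the median of all listed genes. Zinc finger proteins, histones and nucleolar factors have the highest medians (1.28, 1.20 and 1.17) and the replication fork the lowest (-0.76).

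The ribosome's own proteins lay on both sides of 0. Their mRNAs are the classic TOP mRNAs, which start with a C and a run of pyrimidines and are regulated together through mTOR. Of 35 cytosolic ribosomal protein genes, 6 were called higher and 8 lower (17.1% and 22.9%, against 25.0% and 25.9% of all listed genes), and the median log2 ratio was 0.10. In the large subunit 3 of 22 were higher and 5 lower, and in the small subunit 3 of 13 in each direction. With input replicate 1 or 2 left out, 0 were called higher and 2 lower in each case. Reads of ribosomal protein genes can also match processed pseudogenes, so these values carry that uncertainty.

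Start sequences are shown for 3 of the 8 ribosomal protein genes called lower and 3 of the 6 called higher. The pyrimidine run is the element by which this family is recognised. RPL27A, RPS3 and RPS21 were chosen after their values were seen. Each line gives 10 bases before and 20 bases from the RefSeq start (GRCh38.p14), 5′ to 3′, with the unbroken pyrimidine run from the start in capitals: RPL3 (chr22:39319604-39319633, minus), RPL27A (chr11:8682782-8682811, plus), RPS3 (chr11:75399508-75399537, plus), RPS21 (chr20:62387093-62387122, plus), RPS13 (chr11:17077648-17077677, minus) and RPL31 (chr2:101002279-101002308, plus).
RPL3: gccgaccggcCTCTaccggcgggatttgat
RPL27A: gaaggccttcCTTTTTCgtctgggctgcca
RPS3: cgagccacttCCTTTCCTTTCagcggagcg
RPS21: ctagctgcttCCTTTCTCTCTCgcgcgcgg
RPS13: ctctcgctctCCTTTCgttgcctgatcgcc
RPL31: ccttcgcgctCTTCCTTTCCaacttggacg
RPL3 had 1076 and 1375 CPM of fragments against 3400 and 3743 CPM of input RNA (log2 ratio -1.52, edgeR adjusted p = 0.000991). RPL31 had 1359 and 1052 CPM of fragments against 474 and 499 CPM of input RNA (log2 ratio 1.27, edgeR adjusted p = 0.00732). RPL27A (-1.36), RPS3 (-0.87), RPS21 (1.04) and RPS13 (1.17) lay between them. Fragments and input RNA did not overlap in any of these 6 genes. The calls of RPS3, RPS21, RPS13 and RPL31 were lost without either input library and that of RPL27A without input replicate 1. The pyrimidine run had 4, 7 and 11 bases in the lower RPL3, RPL27A and RPS3, and 12, 6 and 10 in the higher RPS21, RPS13 and RPL31.

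Over all listed genes the pyrimidine start was compared in the same way. A start with C followed by 4 more pyrimidines was present in 20 of 27 ribosomal protein genes with a promoter given, in 74 of 643 listed genes (11.5%) and in 4.04% of all 27305 promoters. Ribosomal protein genes with this start had a median log2 ratio of 0.08, with 4 of 20 called higher and 4 lower, and the 7 without it -0.52, with 0 higher and 2 lower; no test of that difference was made. Listed genes with this start had a median log2 ratio of 0.05, and those without it -0.13. With this start 20 of 74 were called higher and 25 lower (27% and 33.8%, against 25.0% and 25.9% of all listed genes). Other mRNAs of the TOP class were mixed as well. RACK1, a ribosome-bound scaffold, had 8491 and 7943 CPM of fragments against 5410 and 5358 CPM of input RNA (log2 ratio 0.61, called higher). EEF2, the translocation factor of elongation, had 9171 and 11372 CPM against 10476 and 11910 CPM (log2 ratio -0.12, not called), and its groups overlapped. TPT1 was called lower (-1.25) and IPO7 higher (1.61). In all, 3 of 8 were higher and 1 lower (37.5% and 12.5%, against 25.0% and 25.9% of all listed genes). The calls of RACK1 and TPT1 were lost without either input library, and that of IPO7 without input replicate 1 or fragment replicate 2.

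Initiation factors ran from -1.86 to 2.74. Of 16, 5 were called higher and 4 lower (31.2% and 25%, close to the 25.0% and 25.9% of all listed genes), with a median log2 ratio of -0.24, and no member changed sign between replicates. EIF3E, a subunit of the eIF3 complex that prepares the small ribosomal subunit, had 792 and 1957 CPM of fragments against 161 and 282 CPM of input RNA (log2 ratio 2.74). EIF4G1, the scaffold of the cap-binding complex, had 1868 and 1472 CPM against 6038 and 5880 CPM (log2 ratio -1.86). Both genes had fragments and input RNA apart in each replicate. EIF5B, the GTPase of subunit joining, was higher (2.62), and EIF1, which guards start codon choice, was lower (-1.40). Subunits of eIF3 itself divided: EIF3E, EIF3M (1.30) and EIF3A (1.30) were higher, and EIF3B (-1.03) and EIF3D (-0.81) lower, out of 7 listed. The calls of EIF3A, EIF3B, EIF3D and EIF3M were lost without input replicate 1, and that of EIF3E was not. EIF3D also lost its call with DESeq2 size factors, its Wald test and the replicate block. With input replicate 1 left out, 2 factors were higher and 1 lower, and without input replicate 2, 3 and 2.

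The aminoacyl-tRNA synthetases, which charge tRNAs, gave different medians in the replicates, -0.79 in replicate 1 and 0.06 in replicate 2. EPRS1 (1.82), RARS1 (1.37) and TARS1 (1.27) were higher, and FARSA (-2.01), AARS1 (-1.41), YARS1 (-1.25) and SARS1 (-1.20) lower, out of 11 (27.3% and 36.4%, against 25.0% and 25.9% of all listed genes). EPRS1, the fused enzyme for glutamate and proline, had 1981 and 1957 CPM of fragments against 468 and 645 CPM of input RNA. FARSA, a subunit of the phenylalanine enzyme, had 792 and 291 CPM against 1661 and 2007 CPM. EPRS1 and FARSA stayed called without any single library, whereas 1 higher and 2 lower calls were left without input replicate 1, and 2 and 1 without input replicate 2.

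Mitochondrial ribosomal proteins were mostly uncalled: 1 of 12 was higher and 2 lower (8.33% and 16.7%, against 25.0% and 25.9% of all listed genes), with a median log2 ratio of -0.39. MRPL13 stood apart from the rest of that list, at 1302 and 728 CPM of fragments against 168 and 221 CPM of input RNA (log2 ratio 2.29). The lower calls, MRPL37 (-0.89) and MRPL4 (-0.87), were lost without either input library.

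Among 7 nucleolar factors of ribosome assembly, 4 were higher (57.1%, against 25.0% of all listed genes) and 0 lower, with a median log2 ratio of 1.17. NCL, the abundant nucleolar RNA-binding protein nucleolin, had 4982 and 7086 CPM of fragments against 2781 and 2257 CPM of input RNA (log2 ratio 1.27, edgeR adjusted p = 0.00139). NOP58, a core protein of box C/D particles that guide rRNA methylation, was at 1.78, the helicase DDX21 at 1.60 and GNL3 at 1.17. DKC1, the pseudouridine synthase, was at -0.63 and not called. DDX21 and NOP58 stayed called without either input library; NCL was lost without input replicate 2, and GNL3 without either.

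Of 16 hnRNP proteins, which package nuclear pre-mRNA, 7 were higher and 1 lower (43.8% and 6.25%, against 25.0% and 25.9% of all listed genes), and the median log2 ratio was 0.65. HNRNPA2B1 had 7472 and 8946 CPM of fragments against 2060 and 1828 CPM of input RNA, a log2 ratio of 2.08 (edgeR adjusted p = 4.62e-05). Its fragments exceeded its input RNA more than 3-fold in each replicate, and its call held under every alternative. HNRNPDL (1.47), SYNCRIP (1.14), PCBP2 (1.11) and HNRNPU (0.98) were also called higher, and HNRNPUL1 lower (-1.26). Only HNRNPA2B1 remained called without either input library.

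Of 15 core spliceosome genes, 4 were higher and 6 lower (26.7% and 40%, against 25.0% and 25.9% of all listed genes). SNRNP200, the helicase that unwinds U4/U6, had 962 and 1181 CPM of fragments against 5182 and 5008 CPM of input RNA (log2 ratio -2.22, edgeR adjusted p = 9.71e-05). The U5 GTPase EFTUD2 was also lower (-1.73). Within the SF3 complex, which recognises the branch site, SF3A1 (-1.69), SF3B3 (-1.31) and SF3B2 (-1.06) were lower and SF3B1 higher (1.09). SF3B1 had 1359 and 1893 CPM of fragments against 679 and 903 CPM of input RNA. PRPF40B (3.79) and SNRPD3 (1.06) were also higher. SR splicing factors had 1 higher and 2 lower of 9 (11.1% and 22.2%), with SRSF9 the lowest (-1.85), SRRM2 also lower (-1.15) and SRSF1 higher (0.72). SRSF7 had a ratio of 0.72 as well and was not called. With input replicate 1 left out, 1 core spliceosome gene was higher and 3 lower, and without input replicate 2, 1 and 4. SRSF1 was lost without either input library, and SRRM2 without input replicate 1.

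In the chaperonin CCT, the ring that folds actin and tubulin, and prefoldin, 5 of 9 were higher (55.6%, against 25.0% of all listed genes) and 0 lower, with a median log2 ratio of 0.81 (0.33 in replicate 1, 0.96 in replicate 2). VBP1, a prefoldin subunit, led with 1019 and 1197 CPM of fragments against 134 and 276 CPM of input RNA (log2 ratio 2.46). The CCT subunits CCT8 (1.12), CCT2 (1.03), CCT6A (0.94) and CCT4 (0.81) were higher. CCT3 (0.12) and CCT7 (-0.66) were not called, so subunits of 1 ring differed in their fitted ratio. Only VBP1 was still called without input replicate 1 or input replicate 2, and with 20 counts required in every library 1 of the 5 genes tested was higher and 1 lower.

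Heat shock proteins had 4 of 12 higher and 1 lower (33.3% and 8.33%, against 25.0% and 25.9% of all listed genes). HSP90AA1, the inducible cytosolic HSP90, had 3000 and 5112 CPM of fragments against 572 and 836 CPM of input RNA, a log2 ratio of 2.55 (edgeR adjusted p = 0.000212). Its constitutive paralog HSP90AB1 had 2604 and 3155 CPM against 3470 and 2851 CPM, a ratio of -0.12 with overlapping groups. HSPH1 (1.73), HSPA4 (1.20) and HSPD1 (1.08) were higher, and the mitochondrial HSP90 TRAP1 lower (-1.70). HSP90AA1, HSPH1 and TRAP1 kept their calls without either input library, and HSPA4 and HSPD1 did not.

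In the endoplasmic reticulum, 3 of 21 chaperones and translocation proteins were higher and 3 lower (14.3% each, below the 25.0% and 25.9% of all listed genes). HSP90B1, the HSP90 of that compartment, had 1981 and 2621 CPM of fragments against 381 and 550 CPM of input RNA (log2 ratio 2.33). SEC63 (2.47) and STT3B (1.39) were also higher. SEC61A1, the pore of the translocon, was lower, at 849 and 987 CPM of fragments against 2010 and 2030 CPM of input RNA (log2 ratio -1.12). HSP90B1 kept its call under every alternative. SEC61A1 and STT3B were lost without either input library, and SEC63 without input replicate 1.

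The proteasome had 5 of 19 higher and 1 lower (26.3% and 5.26%, against 25.0% and 25.9% of all listed genes), and core and cap subunits had medians of 0.19 and 0.07. PSMA4, a core subunit, had 1585 and 2427 CPM of fragments against 559 and 609 CPM of input RNA (log2 ratio 1.83). PSMD12 (1.82), a cap subunit, and PSMB1 (1.34) were also higher, and the catalytic subunit PSMB5 was lower (-0.81). PSMB5 and PSMB1 lost their calls without either input library; 2 higher and 0 lower calls were left in each case.

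DNA replication gave the lowest median of the 24 lists with 5 or more members, in the fit and in each replicate. Of 12 replication fork genes, 6 were lower (50%, against 25.9% of all listed genes) and 3 higher (25%, against 25.0%), with a median log2 ratio of -0.76. Of the 6 subunits of the MCM helicase, MCM5 (-1.37), MCM3 (-1.15), MCM2 (-1.15) and MCM7 (-0.85) were lower, and MCM4 (-0.68) and MCM6 (-0.28) were not called. MCM3 had 1359 and 1327 CPM of fragments against 3063 and 2894 CPM of input RNA, with the replicates close and the groups apart. POLE, the leading-strand polymerase, had 623 and 404 CPM of fragments against 2951 and 3047 CPM of input RNA (log2 ratio -2.64, edgeR adjusted p = 0.000131). The flap nuclease FEN1 was also lower (-1.42).

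Other fork genes pointed the opposite way. TOP2A, which untangles DNA, had 962 and 1488 CPM of fragments against 209 and 419 CPM of input RNA (log2 ratio 2.02). PCNA, the sliding clamp, had 2038 and 1682 CPM against 843 and 838 CPM (log2 ratio 1.12), and RRM1, a subunit of ribonucleotide reductase, was at 1.07. Without input replicate 1 the list had 1 higher and 3 lower calls, and without input replicate 2, 1 and 2. POLE, FEN1 and TOP2A were called in both cases, MCM5 only without input replicate 1. S-phase histones and fork proteins, whose genes are used in the same phase of the cell cycle, had medians of 1.20 and -0.76; no test of that difference was made.

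Of 10 mitotic genes 3 were higher and 3 lower, shares of 30% that lie near the 25.0% and 25.9% of all listed genes. CDK1, the kinase that drives entry into mitosis, had 906 and 1262 CPM of fragments against 132 and 219 CPM of input RNA (log2 ratio 2.67). NUSAP1 (1.19) was higher too, along with PRC1 above. CDC20, an activator of the anaphase-promoting complex, was lower, at 566 and 453 CPM against 1139 and 1212 CPM (log2 ratio -1.26), as were the kinases AURKB (-0.98) and PLK1 (-0.85). CDK1 and PRC1 remained called without either input library, and none of the 3 lower genes did.

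Of 30 nuclear genes of oxidative phosphorylation, 7 were higher and 3 lower (23.3% and 10%, against 25.0% and 25.9% of all listed genes), with a median log2 ratio of 0.28 (0.46 in replicate 1, 0.10 in replicate 2). NDUFA1, a small subunit of complex I, had 1981 and 1391 CPM of fragments against 379 and 575 CPM of input RNA (log2 ratio 1.77). NDUFV1, the subunit of the same complex that binds NADH, had 623 and 404 CPM against 1521 and 1919 CPM (log2 ratio -1.86), so subunits of complex I reached both ends of the list. NDUFS5 (1.81), UQCRB (1.78), COX6C (1.43) and ATP5PB (1.31) were higher and UQCRC1 lower (-1.12). Without input replicate 1, 2 were higher and 1 lower, and without input replicate 2, 4 and 1. Median input RNA of this list was 532 CPM in replicate 1 and 689 CPM in replicate 2. In replicate 1 that is under the floor of 566 CPM of fragments. Members with input RNA under the floor could not show a ratio below 0 there, which limits lower calls. The part of the floor in the list's shares was not tested. No mitochondrially encoded subunit could be named.

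Among 5 glycolytic genes LDHB alone was called, and it was higher (20%, against 25.0% of all listed genes). LDHB had 2944 and 5743 CPM of fragments against 1879 and 2001 CPM of input RNA (log2 ratio 1.19). GAPDH (-0.17), PKM (-0.43), TPI1 (-0.55) and LDHA (0.26) were not called. In the citric acid cycle, DLD was higher (2.02) and IDH3B lower (-0.78). Of 7 peroxiredoxins and redox proteins thioredoxin, TXN, was higher (1.34), which makes 14.3% of the list. PRDX6 was the lowest of that list (-0.66, not called). The calls of LDHB and IDH3B were lost without either input library, and that of TXN without input replicate 1.

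In the fit, amino acid transporters had the lowest median of any list, -0.78, with only 4 members. The replication fork was close, at -0.76. In replicate 1 the fork was lower (-0.90 against -0.81), and in replicate 2 the transporters were (-0.75 against -0.71). SLC7A5, the large neutral amino acid exchanger, had 736 and 550 CPM of fragments against 2406 and 2600 CPM of input RNA (log2 ratio -2.02). SLC7A1, the cationic transporter, was also lower (-1.48). SLC38A2, a sodium-coupled transporter, was higher, at 792 and 1068 CPM against 257 and 340 CPM (log2 ratio 1.69). SLC1A5 was at -0.07 and not called. SLC7A5 stayed called without either input library, while SLC7A1 and SLC38A2 were lost without input replicate 1.

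Of 5 mRNAs with textbook translational control, ATF4 alone was called, and it was lower (20%, against 25.9% of all listed genes). In general, short upstream reading frames hold ATF4 translation low until stress relieves it. Their part in the ratio here was not tested. ATF4 had 566 and 922 CPM of fragments against 1682 and 1749 CPM of input RNA (log2 ratio -1.12, edgeR adjusted p = 0.00971). Its value in fragment replicate 1 is the floor of 10 counts. The call was lost without either input library. EIF5 (0.33), TFRC (0.35) and AMD1 (0.27) were not called. In the cytoskeleton 0 of 9 were higher and 2 lower (0% and 22.2%, against 25.0% and 25.9% of all listed genes). The lower genes, CFL1 (-0.77) and TUBA1B (-0.74), lost their calls with DESeq2 size factors, its Wald test and the replicate block. Both calls were also lost without either input library. VIM was the highest, at 0.45.

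Zinc finger proteins had the highest median of the lists with 5 or more members in the fit, 1.28, and in replicate 1. In replicate 2 replication-dependent histones were higher (1.26 against 1.15). The 8 zinc finger genes ranged from -0.75 (ZNF316) to 6.50 (ZNF497). Calls went to ZNF536, ZNF326 (2.29) and ZNF146 (1.90), all higher (37.5%, against 25.0% of all listed genes). ZNF536 alone was left without input replicate 1 or input replicate 2. Median input RNA was 400 and 426 CPM in this list, against 993 and 964 CPM over all listed genes. The 20 genes without a name had 10 higher and 2 lower (50% and 10%, against 25.0% and 25.9% of all listed genes). Their median was 1.73 and their median input RNA 709 and 487 CPM.

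Fragment replicate 2, the deeper one, decided calls too: without it those of TPT1, MRPL37, MACROH2A1, CDC20, LDHB, IDH3B, CFL1, RPS3, RPS21, MCM7, EIF3M, CCT4, CCT6A, CCT8, HNRNPDL, PCBP2, SYNCRIP, HSPA4, SF3B1, SNRPD3, AURKB, NUSAP1, STT3B, IPO7, SRSF1 and MRPL4 were lost, in addition to the losses given with each list.

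Input level moved with the ratio throughout. Input RNA is the denominator, and the list holds only genes above a floor of fragment counts, so a negative relation is built in; across the 785 genes Spearman's rho was -0.72. In 4 groups of about equal size, from the lowest to the highest input level, the median log2 ratio was 1.44, 0.18, -0.63 and -0.90. In the lowest group 113 of 197 genes were called higher and 0 lower (57.4% and 0%). Mean input RNA in that group was at most 530.5 CPM, under the floor of 566 CPM in fragment replicate 1. Ratios below 0 were thus hardly open to these genes in replicate 1, and the 0 lower calls are no separate result. In the highest 12 of 196 were higher and 115 lower (6.12% and 58.7%), against 25.0% and 25.9% of all listed genes. The 28 histones fell into these groups as 6, 8, 6 and 8 genes, of which 4, 7, 5 and 5 were called higher, with median log2 ratios of 1.02, 1.46, 1.10 and 1.59. For MCM genes the median input RNA was 3107 and 2686 CPM, and for the replication fork 2058 and 2006 CPM. The part of input level and of the floor in the families' medians was not tested.

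**Figure D4:**
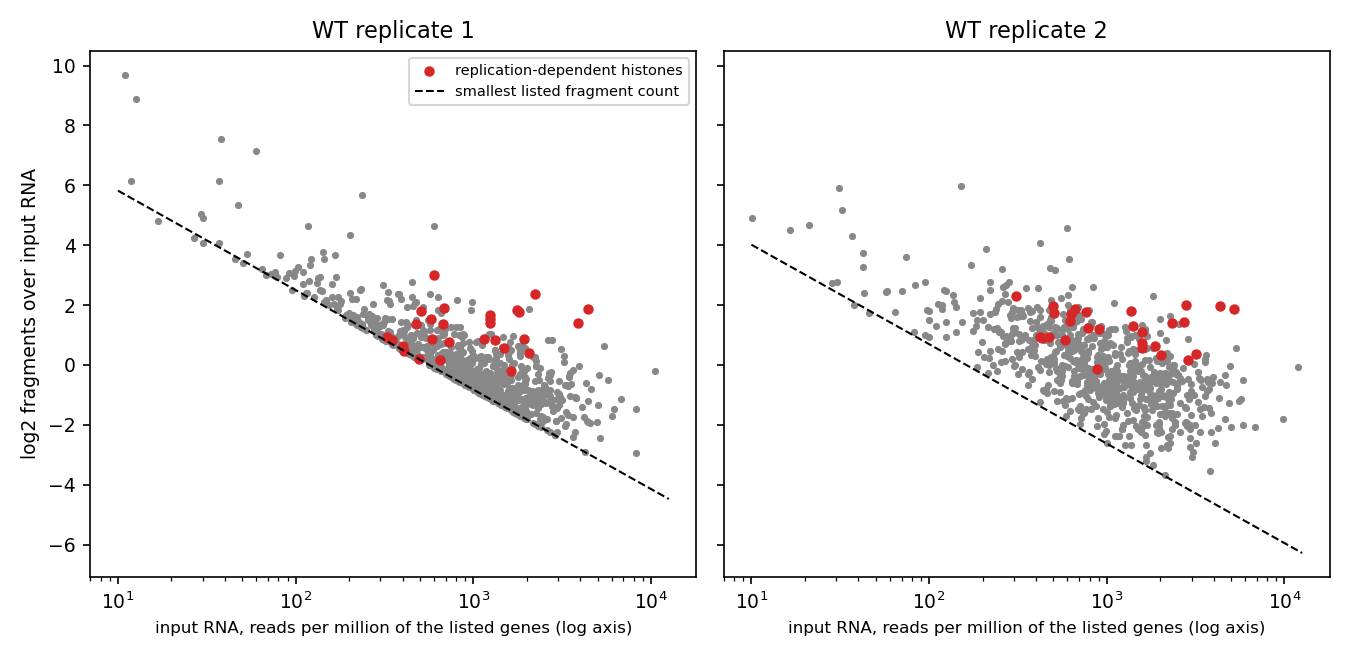
Log2 ratio of fragments to input RNA against input RNA in CPM of the listed genes (log axis), in replicate 1 (left) and replicate 2 (right), with replication-dependent histones in red; the dashed line is the ratio of a gene with the smallest listed fragment count. Points crowd against the line in replicate 1, where it stands at 566 CPM of fragments, and less in replicate 2, where it stands at 162 CPM.

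The authors' deposited table puts each named gene in a start class. Besides m6Am, the classes are labelled by the base alone (A, C, G and T), and these labels do not say whether that base is modified. The m6Am genes sat at the centre, with 100 of 416 higher, 109 lower and a median log2 ratio of -0.13. These shares, 24% and 26.2%, lie near the 25.0% and 25.9% of all listed genes. Genes with an A start had a median of -0.03 (n = 201), with a C start -0.49 (n = 52), with a G start 0.34 (n = 50) and with a T start 0.20 (n = 46). For C starts 8 were higher and 17 lower (15.4% and 32.7%), and for G starts 17 were higher and 10 lower (34% and 20%). C starts had the lowest and G starts the highest median in both replicates, while m6Am lay below A in replicate 1 (-0.10 and 0.04) and above it in replicate 2 (-0.07 and -0.16). Median input RNA in replicate 1 was 1107 CPM for m6Am, 960 for A, 923 for C, 670 for G and 818 for T starts, and its part in these medians was not tested. RefSeq's start often has another base than the class: of 163 genes of class A with a promoter given, 43 start with C there.

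N6-methyladenosine inside transcripts (m6A) also moved with the ratio. Counting the sites of the WT miCLIP list within each gene's span, 98 genes had none, and their median log2 ratio was 0.75. Of these 98, 37 were higher and 7 lower (37.8% and 7.14%, against 25.0% and 25.9% of all listed genes). The 364 genes with 1 to 4 sites had a median of 0.04, with 91 higher and 77 lower (25% and 21.2%). The 302 genes with 5 or more had -0.51, with 58 higher and 117 lower (19.2% and 38.7%). Median input RNA in replicate 1 rose over the same groups, from 575 to 903 and 1346 CPM. Across 764 genes Spearman's rho was -0.29 between the ratio and the sites, and 0.33 between input level and the sites. Site calls come from 1 library and need reads at the site; the part of input level in this relation was not tested. The GC share of the promoter correlated with the ratio at a rho of -0.18 over 643 genes, and the length of the gene at -0.02 over 764.

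**Figure D5:**
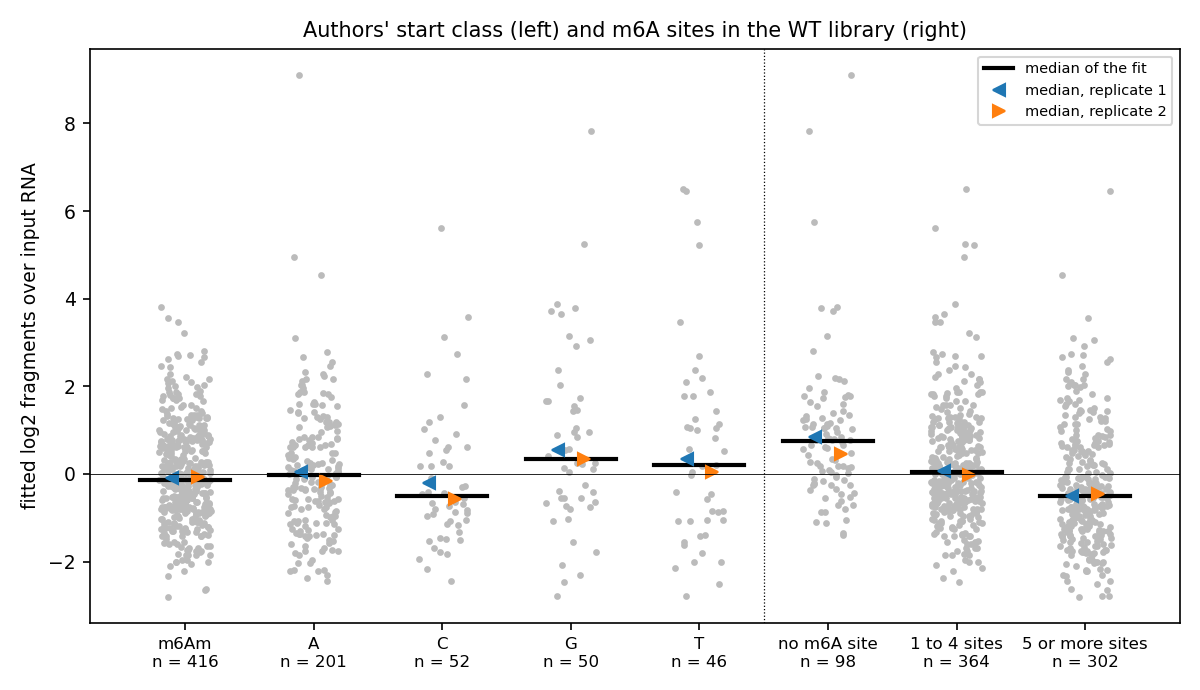
Fitted log2 ratio of fragments to input RNA by the authors' start class (left) and by m6A sites in the wild-type library (right), 1 grey point per gene, with the median of the fit (bar) and of replicates 1 and 2 (triangles). The start classes overlap over most of their range, with medians from -0.49 (C) to 0.34 (G), while the median falls from 0.75 without a site to -0.51 with 5 or more.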

How the data were processed

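The deposited fragment and input tables hold whole-number counts per gene, 1 column per library, not normalized, per the file headers and values. The submitters' processing notes name BWA 0.7.17, STAR, bedtools and deepTools with the builds GRCh38, hg38 and mm10; no role is stated. Which tool aligned or counted a table is not given in the sources used here. Each gene's start class is the authors' deposited label, and m6A sites are the authors' deposited positions. The 4 wild-type columns were used, and 0 columns of these tables match no sample.

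Fragments were tested against input RNA over all 785 genes with edgeR 4.0.16 in R 4.3.3 (library size over the listed genes, no scaling factor, robust quasi-likelihood F test, two-sided, Benjamini-Hochberg threshold 0.05). Ratios per replicate are differences of log2 CPM with a prior count of 2. Standard errors are approximate: the absolute fitted log2 ratio divided by the square root of its F statistic. Tested on simulated counts for 785 genes, the fit called 47 of 50 genes in each direction at a log2 size of 2. At a size of 1 it called 8 of 50 raised and 31 of 50 lowered, and it called 11 of 585 unchanged genes. Sizes are those set before the simulated shares were rescaled to their total, which shifts all of them alike. The simulated counts had the same dispersion for every gene and no floor of 10 fragment counts, so these rates may not hold for the data. Names came from RefSeq accessions (762) or symbols (3); 57 differ from the deposited symbol. Promoters were matched by symbol for 643 genes.

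The genes and lists were chosen with earlier results of these data known. The rule named the 12 highest and lowest called genes with 1 sign in both replicates, the 10 highest and lowest per replicate, each list's highest and lowest member, all members of lists of up to 5, and called noncoding genes; 76 further list members were chosen after their values were seen. A few genes are not reported here. Same-numbered fragment and input libraries did not deviate together (correlation -0.07), so the main test did not use the numbers as pairs. The ratios per replicate, and the ranks, signs and medians taken from them, do pair libraries by number. Alternatives were TMM factors, DESeq2 1.42.0 size factors and its Wald test, a replicate block, a minimum of 20 counts, each library left out, other prior counts, named protein-coding genes alone, and input scaled to all its genes. Correlations and medians across genes carry no test. Tables were handled with pandas 2.3.3, scipy 1.17.1 and numpy 2.4.6 (Python 3.11.15), and figures drawn with matplotlib 3.10.9.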

Additional observations from a re-analysis of the deposited data

How the results depend on the processing

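Against the 196 higher and 203 lower calls, TMM factors gave 203 and 210, DESeq2 size factors 217 and 182, and DESeq2's Wald test 207 and 152. Named protein-coding genes alone gave 208 and 204. Other prior counts alter only the ratio and do not enter the test, so they could change no call. With the replicate number as a block the counts were 171 and 172, of which 157 and 167 were shared with the calls above. Requiring 20 counts in every library left 256 genes and 67 higher and 69 lower calls; fewer genes were tested. Leaving out 1 library gave 78 to 237 higher and 76 to 250 lower calls, and the cause of the lower counts without an input library was not tested. Scaling input to every gene of its table moved the median ratio by 2.32 (log2) and gave 695 higher and 0 lower calls, so every direction above is relative to the listed genes. Of 138 named called genes, 64 kept the call under every alternative that tested them, that scaling aside. Values that changed sign belonged to genes not called. With 20 counts required, these were H1-3 (-0.14), LDHA (-0.067), H4C5 (-0.033) and CCT3 (-0.20). Leaving out 1 library or replicate gave -0.37 to 0.50 for H1-3, -0.38 to 1.13 for AMD1, -0.17 to 0.62 for TFRC, -1.76 to 0.32 for ZNF316, -0.39 to 0.14 for SLC1A5, -0.15 to 0.33 for CCT3, -0.41 to 0.15 for HSP90AB1 and -0.29 to 0.023 for EEF2. SLC1A5 was at 0.001 with DESeq2 size factors and 0.006 with the Wald test. The cause was not tested. Of 27 list medians, 5 had opposite signs in the replicates and 1 changed sign under DESeq2 size factors. Depth limits low ratios in fragment replicate 1 most.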
